A study of Arabidopsis thaliana with 33 samples.

Results

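Plants that share 1 RNA decay defect were compared by which of 2 Dicer enzymes they lack. Arabidopsis thaliana plants of the double mutant ski2-2 dcl4-2 were set against plants of the double mutant ski2-2 dcl2-1, gene by gene. The genes described are the 19771 genes, of 33557 listed, with at least 1 FPKM (fragments per kilobase of transcript, scaled to the size of the library) in either genotype. The gene just inside that limit, AT5G33391, had 1.0001 FPKM in ski2-2 dcl4-2 and 0 in ski2-2 dcl2-1. The gene just outside it, AT5G34835, had 0.9998 FPKM in ski2-2 dcl4-2 and 0 in ski2-2 dcl2-1. RNA came from the above-ground parts of plants 20 days old, grown for 6 days on medium and 14 days in soil, harvested at hour 15 of the day. Both genotypes carry ski2-2, and they differ in the Dicer allele, dcl4-2 or dcl2-1. Other genotypes used below for their levels were the triple mutant (ski2-2 with both Dicer alleles), ski2-2 alone, ein5-1 with either or both Dicer alleles, the single mutants dcl4-2 and dcl2-1, and Col-0, which carries none of these alleles. Each genotype had 3 libraries, numbered as replicates, but the table holds 1 pooled value per gene and genotype. No library value, SD or read depth is therefore behind any value below, and no test between ski2-2 dcl4-2 and ski2-2 dcl2-1 is in the table or can be made from it. A gene is called higher or lower in ski2-2 dcl4-2 where log2(FPKM + 1) differed by at least 1, which states a size and not a significance.

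Dicer-like proteins cut double-stranded RNA into small interfering RNAs (siRNAs) that guide Argonaute proteins to matching transcripts. DCL4 makes the trans-acting siRNAs (tasiRNAs) from TAS transcripts and is the main Dicer of transgene silencing after transcription, while DCL2 makes siRNAs that are slightly longer. SKI2 is the RNA helicase that feeds transcripts to the cytosolic exosome, and EIN5 is the cytosolic exoribonuclease that degrades decapped RNA from the other end. Where such decay fails, aberrant mRNAs can enter the siRNA pathway, and in Arabidopsis DCL2 has been described as making siRNAs from transcripts such as NIA1, NIA2, SMXL4 and SMXL5 once DCL4 is missing as well.

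The FPKM values summed to 753957 in ski2-2 dcl4-2 and 1223766 in ski2-2 dcl2-1, and 18976 and 18093 genes were at 1 FPKM or more in those genotypes. Across the members, Pearson's r of log2(FPKM + 1) was 0.821 between ski2-2 dcl4-2 and ski2-2 dcl2-1. The profile of ski2-2 dcl2-1 was nearest to those of ein5-1 with both Dicer alleles (r = 0.981) and of dcl2-1 (r = 0.980). The triple mutant, which also carries ski2-2 and dcl2-1, was further from it (r = 0.926) and near ski2-2 (r = 0.989). Nearness of profiles thus did not follow the dcl2-1 allele in every genotype, and the source of this grouping was not tested. The profile of ski2-2 dcl4-2 was nearest to that of ein5-1 dcl4-2 (r = 0.905). These r values describe 19771 genes that share libraries and are no test. Of 4 leaf markers, all 4 were lower in ski2-2 dcl4-2, with summed levels of 8877 FPKM in ski2-2 dcl4-2 and 32869.5 FPKM in ski2-2 dcl2-1. Of 6 root markers matched (of 7 listed), 5 were higher, with sums of 754 FPKM in ski2-2 dcl4-2 and 51.7 FPKM in ski2-2 dcl2-1. All 6 flower markers were lower, with sums of 4.98 FPKM in ski2-2 dcl4-2 and 27.0 FPKM in ski2-2 dcl2-1, and TIP2;3, a root tonoplast aquaporin, was listed at 0 in ski2-2 dcl2-1. In bulk tissue, fewer cells of a type and less RNA per cell cannot be told apart, and the part of tissue make-up in the results below was not tested. Clock genes differed as well, as described further on.

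Stretches of TAS RNAs are shown first, because DCL4 is the enzyme that releases them and their targets can be read in both genotypes. In TAS3, TAS4 and TAS1C, the 21 bases that pair best with the listed targets were looked for in RefSeq TAIR10.1 transcripts, on either strand and without gaps. Each TAS stretch is written as the small RNA that would pair with the site. Capitals mark the bases that pair, in each target site with its own best stretch.
TAS3 stretch, sense strand of the TAS3 RNA, as it pairs with ARF4: TTTCTTGACCTTGtAAGACCC
ARF4 site, chr5:24309507-24309527, minus strand: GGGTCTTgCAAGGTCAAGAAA
ARF3 site, chr2:14325941-14325961, minus strand: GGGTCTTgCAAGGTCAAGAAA
ARF2 site, chr5:24913261-24913281, plus strand: aGGGTCTTgCAAGGTCAAGAA
TAS4 stretch, antisense to the TAS4 RNA, as it pairs with PAP1: GTGAAGGATCGAGGTCGAGGC
PAP1 site, chr1:21234021-21234041, minus strand: GCCTCGACCTCGATCCTTCAC
PAP2 site, chr1:24765073-24765093, plus strand: GCCTCGACCTCGATCCTTCtC
TAS1C stretch, sense strand of the TAS1C RNA, as it pairs with HTT2: CTAAGTCCAACATAGCGTatT
HTT2 site, chr5:5973753-5973773, plus strand: AtcACGCTATGTTGGACTTAG
HTT1 site, chr4:14577243-14577263, plus strand: AAcACGaTATGTTGGACTTAG
All 7 sites lie in coding exons. Of the 21 bases, 21 paired in PAP1, 20 in ARF4, ARF3 and PAP2, and 19 in ARF2, HTT1 and HTT2. Among transcripts of 32802 genes, those of ARF2, ARF3 and ARF4 were the only ones outside the TAS genes to pair at 19 or more bases with the TAS3 stretch shown. For the TAS4 stretch the only such genes were PAP1, PAP2 and MYB113, and for the TAS1C stretch they were HTT1, HTT2, AT4G29760 and AT5G18065. HTT2 also paired at 19 bases with stretches of TAS1A and TAS1B. Pairing is a description of the letters and does not show cleavage.

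Of 8 listed tasiRNA targets, 7 were members, 6 of which were higher in ski2-2 dcl4-2 and 0 lower, with a median difference of 2.39. Over all members, 14.5% were higher by this rule and 14.1% lower, with a median difference of 0.02, and each list count below is to be read against these shares. ARF4, an auxin response factor that sets organ polarity, had 60.2 FPKM in ski2-2 dcl4-2, against 10.7 FPKM in ski2-2 dcl2-1 (difference 2.39). It was also at 51.8 FPKM in the triple mutant, 14.6 in ski2-2, 31.5 in dcl4-2, 7.86 in dcl2-1 and 12 in Col-0, so that each of these genotypes with dcl4-2 lay above each without it. ARF3, a factor of the same kind, showed the same order with a difference short of the call (0.88), at 27.4 FPKM in ski2-2 dcl4-2 and 14.4 FPKM in ski2-2 dcl2-1. ARF2, a repressor of growth, was at 152 FPKM in ski2-2 dcl4-2 and 75.2 FPKM in ski2-2 dcl2-1, a difference of 1.00 that just reaches the call. HTT2, a gene of heat tolerance, had 49.2 FPKM in ski2-2 dcl4-2 and 11.8 FPKM in ski2-2 dcl2-1, and its relative HTT1 had 7.20 FPKM in ski2-2 dcl4-2 and 0.128 FPKM in ski2-2 dcl2-1. In HTT2, as in ARF4, the triple mutant stayed near ski2-2 dcl4-2, at 47.3 FPKM. PAP1 and PAP2, MYB activators of anthocyanin synthesis, behaved otherwise: PAP1 was at 224 FPKM in ski2-2 dcl4-2 and 6.78 FPKM in ski2-2 dcl2-1, but at 63.1 FPKM in the triple mutant and 92.4 FPKM in ski2-2. With SKI2 intact, 6 of these 7 targets were higher in dcl4-2 than in dcl2-1, with a median difference of 1.2. MYB113 was under 1 FPKM in both genotypes compared and is no member.

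The 6 tasiRNA precursors showed no common direction, with 1 higher and 1 lower. TAS4 was at 41.1 FPKM in ski2-2 dcl4-2 and was listed at 0 in ski2-2 dcl2-1, so no fold is given. TAS3 went the other way, at 8.95 FPKM in ski2-2 dcl4-2 and 27.7 FPKM in ski2-2 dcl2-1 (difference -1.53), and its 77.1 FPKM in the triple mutant was above both. TAS2 was at 28.9 FPKM in ski2-2 dcl4-2 and 14.8 FPKM in ski2-2 dcl2-1, and TAS1C at 16.2 FPKM in ski2-2 dcl4-2 and 8.90 FPKM in ski2-2 dcl2-1. TAS1A and TAS1B differed by 0.47 and -0.01 on the log2 scale. TAS RNAs encode no known protein and are copied into double strands before a Dicer cuts them.

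The mutated genes gave a partial check of the labels. DCL2 had 9.02 FPKM in ski2-2 dcl4-2, against 1.91 FPKM in ski2-2 dcl2-1 (difference 1.78), with 1.92 in the triple mutant, 6.43 in ski2-2, 4.96 in dcl4-2, 1.23 in dcl2-1 and 5.10 in Col-0. Every one of these genotypes with dcl2-1 lay below every one without it. SKI2 stood at 3.90 FPKM in ski2-2 dcl4-2 and 3.18 FPKM in ski2-2 dcl2-1, below the 6.91 FPKM of Col-0 in both. DCL4 did not separate the pair, at 4.89 FPKM in ski2-2 dcl4-2 and 4.40 FPKM in ski2-2 dcl2-1, and was at 4.51 FPKM in dcl4-2, 4.30 FPKM in dcl2-1 and 5.93 FPKM in Col-0. A count over the whole gene cannot show whether the dcl4-2 transcript is intact.

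Of 14 other silencing factors that were members, 1 was higher and 0 lower. The higher gene was RDR2, the RNA polymerase of the pathway that makes siRNAs for DNA methylation, at 4.41 FPKM in ski2-2 dcl4-2 and 1.23 FPKM in ski2-2 dcl2-1. AGO1, the main Argonaute of miRNAs, was at 55.7 FPKM in ski2-2 dcl4-2 and 39.9 FPKM in ski2-2 dcl2-1, and RDR6, the polymerase that copies TAS RNAs, at 8.02 FPKM in ski2-2 dcl4-2 and 7.52 FPKM in ski2-2 dcl2-1. Of 20 RNA decay factors, 0 were higher and 1 was lower: CAF1A, a deadenylase subunit, had 7.79 FPKM in ski2-2 dcl4-2 and 27.2 FPKM in ski2-2 dcl2-1. UPF3, of nonsense-mediated decay, came nearest to the call on the higher side at 0.95. Among the 4 siRNA source genes, the nitrate reductase gene NIA1 was higher, with 39.6 FPKM in ski2-2 dcl4-2 and 14.6 FPKM in ski2-2 dcl2-1. Its partner NIA2 had 83.6 FPKM in ski2-2 dcl4-2 and 150.4 FPKM in ski2-2 dcl2-1, a difference of -0.84 that misses the call, while it stood at 531 FPKM in the triple mutant and 489 FPKM in ski2-2. SMXL5 and SMXL4, which act in phloem development, differed by 0.80 and -0.26.

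Over all members, 2861 genes were higher in ski2-2 dcl4-2 and 2787 lower, while 14123 (71.4%) were within a difference of 1. A member listed at 0 in 1 of the 2 genotypes passes the call by definition. Such genes were 472 of the higher ones, at 0 in ski2-2 dcl2-1, and 108 of the lower ones, at 0 in ski2-2 dcl4-2. By a difference of 3, which is a factor of 8 on the FPKM + 1 scale, 365 genes were higher (1.85%) and 178 lower (0.9%). The call itself shapes the levels of the called genes, which are given as a description. The higher genes had a median level of 10.7 FPKM in ski2-2 dcl4-2 and 1.72 FPKM in ski2-2 dcl2-1, whereas the lower genes had 9 FPKM in ski2-2 dcl4-2 and 31.9 FPKM in ski2-2 dcl2-1.

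**Figure D1:**
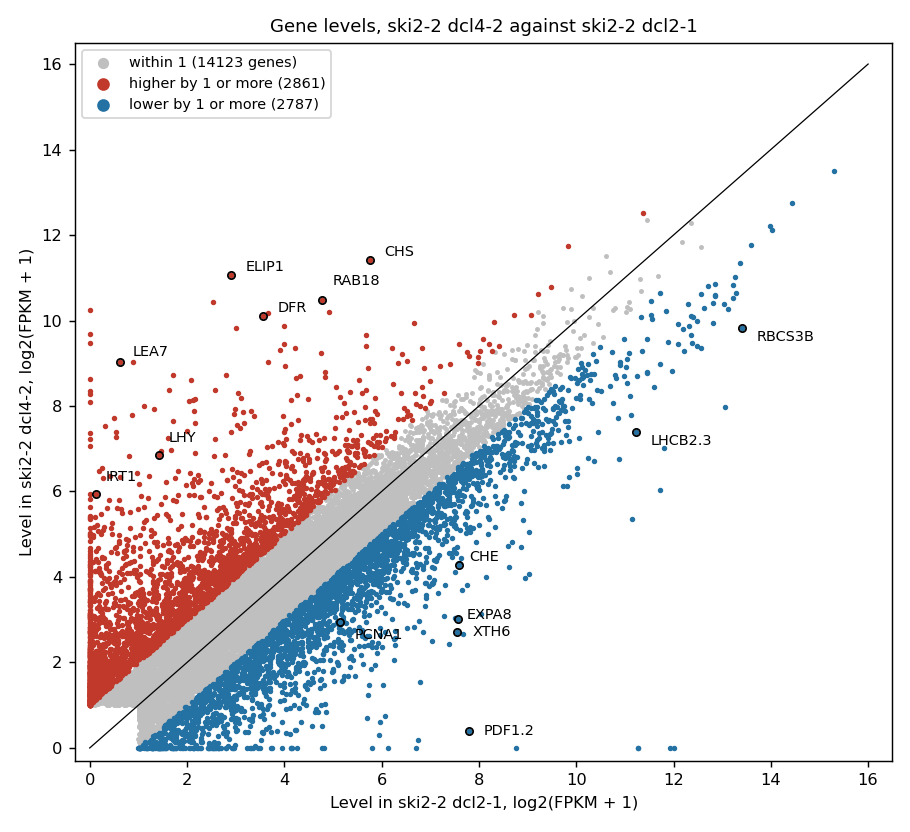
Level of each of the 19771 members in ski2-2 dcl4-2 (vertical axis) against its level in ski2-2 dcl2-1 (horizontal axis), both as log2(FPKM + 1). Points above the line of equality are higher in ski2-2 dcl4-2. The 2861 genes higher by 1 or more and the 2787 lower are coloured, LEA7 and ELIP1 lie far above the line and PDF1.2 far below it.

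Of the 12 genes with the largest excess in ski2-2 dcl4-2, the first was LEA7. LEA7 encodes a late embryogenesis abundant (LEA) protein, a kind made in drying seeds. It had 518 FPKM in ski2-2 dcl4-2, against 0.544 FPKM in ski2-2 dcl2-1 (difference 8.39), and under 1 FPKM in the triple mutant, ski2-2, dcl4-2, dcl2-1 and Col-0. ELIP1, an early light-induced protein of stressed chloroplasts, had 2130.4 FPKM in ski2-2 dcl4-2 and 6.47 FPKM in ski2-2 dcl2-1. Unlike LEA7, it was also well expressed in Col-0 (153 FPKM) and low in dcl2-1 (3.18 FPKM). The lipid transfer protein genes LTP4 and LTP3, which lie side by side and are close relatives whose reads may be shared, had 1376 and 901 FPKM in ski2-2 dcl4-2, against 4.75 and 7.04 FPKM in ski2-2 dcl2-1. The others were the glycine-rich protein gene AT2G05510 (519.6 FPKM in ski2-2 dcl4-2 and 0.863 FPKM in ski2-2 dcl2-1), the heavy metal domain gene AT4G08570 (208 FPKM in ski2-2 dcl4-2 and 0.404 FPKM in ski2-2 dcl2-1), SAG29, the LEA gene LEA4-5, the major latex-like protein gene MLP34, the nudix hydrolase gene NUDT24, the plastid glucose-phosphate transporter gene GPT2, and the noncoding RNA AT1G67105. SAG29, a sugar transporter of ageing leaves, had 183 FPKM in ski2-2 dcl4-2 and 0.248 FPKM in ski2-2 dcl2-1. GPT2 had 419 FPKM in ski2-2 dcl4-2 and 2.3 FPKM in ski2-2 dcl2-1. AT1G67105 was at 332 FPKM in ski2-2 dcl4-2 and 2.09 FPKM in ski2-2 dcl2-1. Of the 12, this RNA and ELIP1 also had a large contrast with SKI2 intact, AT1G67105 at 70.1 FPKM in dcl4-2 and 0.124 FPKM in dcl2-1 (difference 5.98) and ELIP1 by 5.37, while the other 10 differed there by no more than 1.00. MLP34 was at 255 FPKM in ski2-2 dcl4-2 and 1.18 FPKM in ski2-2 dcl2-1. A large pooled difference need not pass a test. For ski2-2 dcl4-2 against ski2-2, the authors' deposited table gives q = 0.366 for MLP34 and a q under 0.05 for the other 11. For ski2-2 dcl4-2 against dcl4-2, the authors' deposited table gives q = 0.346 for LEA7, 0.141 for AT2G05510 and 0.165 for MLP34. For the triple mutant against ski2-2 dcl4-2, the authors' deposited table gives q = 0.104 for AT2G05510.

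Abscisic acid (ABA) is the hormone of drought and seed dormancy, and genes that answer to it are markers of water stress. Of 23 ABA and drought genes, 21 were higher in ski2-2 dcl4-2 and 0 lower, with a median difference of 3.13. Their summed level was 7965 FPKM in ski2-2 dcl4-2, against 886 FPKM in ski2-2 dcl2-1, 728 in the triple mutant and 847 in ski2-2. It was 658 in dcl4-2, 1036 in dcl2-1 and 562 in Col-0, so ski2-2 dcl4-2 stood alone among these. In plants with ein5-1, 22 of the 23 genes were likewise higher in ein5-1 dcl4-2 than in ein5-1 dcl2-1, against 16.6% of all members. RD29B, a marker of ABA response, had 154 FPKM in ski2-2 dcl4-2 and 0.451 FPKM in ski2-2 dcl2-1 (difference 6.74), and q = 0.346 for ski2-2 dcl4-2 against dcl4-2 in the authors' deposited table. The dehydrin gene RAB18 had 1429.6 FPKM in ski2-2 dcl4-2 and 26.6 FPKM in ski2-2 dcl2-1. Genes at several steps of the pathway shared the direction. NCED3, the enzyme of the committed step of ABA synthesis, was at 20.8 FPKM in ski2-2 dcl4-2 and 4.05 FPKM in ski2-2 dcl2-1. HAI1, a phosphatase that dampens ABA signalling, was at 125 FPKM in ski2-2 dcl4-2 and 2.19 FPKM in ski2-2 dcl2-1, and P5CS1, of proline synthesis, was higher by 3.99. The cold-linked dehydrin genes ERD10 and COR47 were the members that were not higher, with differences of 0.33 and -0.02. With SKI2 intact, the same list had a median difference of 0.05 between dcl4-2 and dcl2-1, with 3 genes higher and 4 lower.

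Because these genes were higher together, promoters were searched for motifs in the 250 bases before and 50 after the annotated start, on both strands. The letters searched were ACGTGGC or ACGTGTC for the ABA-responsive element (ABRE), CACGTG for the G-box and AATATCT for a short form of the evening element. An ABRE can overlap a G-box, which happened in 911 of the member promoters. Of the members with a promoter, 8.98% held an ABRE, compared with 12.8% of the genes higher in ski2-2 dcl4-2, 19.2% of those higher by 3 or more and 8.09% of the lower genes. The G-box shares were near these, at 8.94% of all members, 12.5% of the higher and 7.87% of the lower genes. The short evening element ran the other way, at 11.8% of all members, 11.1% of the higher and 14.3% of the lower genes. These shares are descriptions without a test. Of the 23 ABA and drought genes, 7 held an ABRE. The 250 bases before the start are printed with the ABRE in capitals (RefSeq, TAIR10.1) for RD29B and LEA7, chosen after their values were seen because they stand among the largest differences.
RD29B, chr5:21236771-21237020, plus strand: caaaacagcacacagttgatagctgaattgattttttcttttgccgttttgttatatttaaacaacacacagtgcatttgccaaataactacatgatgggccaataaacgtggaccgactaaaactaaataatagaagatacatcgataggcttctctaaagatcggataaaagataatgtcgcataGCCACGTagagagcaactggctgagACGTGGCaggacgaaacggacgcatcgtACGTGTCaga
LEA7, chr1:19619474-19619723, plus strand: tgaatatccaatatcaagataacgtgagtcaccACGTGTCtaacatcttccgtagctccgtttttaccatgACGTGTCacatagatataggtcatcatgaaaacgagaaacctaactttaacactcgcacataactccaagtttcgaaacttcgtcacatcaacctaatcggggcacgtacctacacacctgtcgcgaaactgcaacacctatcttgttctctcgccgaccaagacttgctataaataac
RD29B held 3 matches, which start 63, 38 and 10 bases before the annotated start, and LEA7 held 2, at 217 and 179 bases before it.

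Anthocyanins are the red and purple flavonoid pigments of stressed leaves. Of 18 anthocyanin and flavonoid genes that were members, 16 were higher in ski2-2 dcl4-2 and 0 lower, and the median difference of 5.32 was the largest of the 27 lists. CHS, the first enzyme of the pathway, had 2729 FPKM in ski2-2 dcl4-2 and 53.3 FPKM in ski2-2 dcl2-1. DFR, the first enzyme committed to anthocyanin, had 1099.6 FPKM in ski2-2 dcl4-2 and 10.8 FPKM in ski2-2 dcl2-1 (difference 6.55), and LDOX, the next step, 941 FPKM in ski2-2 dcl4-2 and 14.8 FPKM in ski2-2 dcl2-1. TT8, the bHLH partner of PAP1, had 54.8 FPKM in ski2-2 dcl4-2 and 0.526 FPKM in ski2-2 dcl2-1. The regulators of the flavonol branch differed less, MYB11, MYB12 and MYB111 by 1.76, 1.66 and 1.01. PAP1 and PAP2 are counted in this list as well as among the tasiRNA targets. In contrast to the ABA genes, both ends of this comparison lay away from Col-0. The list's summed level was 8471 FPKM in ski2-2 dcl4-2 and 164 FPKM in ski2-2 dcl2-1, against 2148 in the triple mutant, 3237 in ski2-2, 1451 in dcl4-2, 139.9 in dcl2-1 and 1286 in Col-0. With SKI2 intact, 13 of 18 genes were higher in dcl4-2 than in dcl2-1, with a median difference of 2.34. A G-box stood in 7 of the 18 promoters, and that of DFR is printed with it in capitals; a second match lies after the start.
DFR, chr5:17166033-17166282, minus strand: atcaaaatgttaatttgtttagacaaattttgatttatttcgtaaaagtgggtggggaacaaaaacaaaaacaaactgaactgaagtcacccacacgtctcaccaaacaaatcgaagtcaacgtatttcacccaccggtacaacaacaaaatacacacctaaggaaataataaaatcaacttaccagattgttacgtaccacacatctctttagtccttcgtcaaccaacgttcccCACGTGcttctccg

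**Figure D2:**
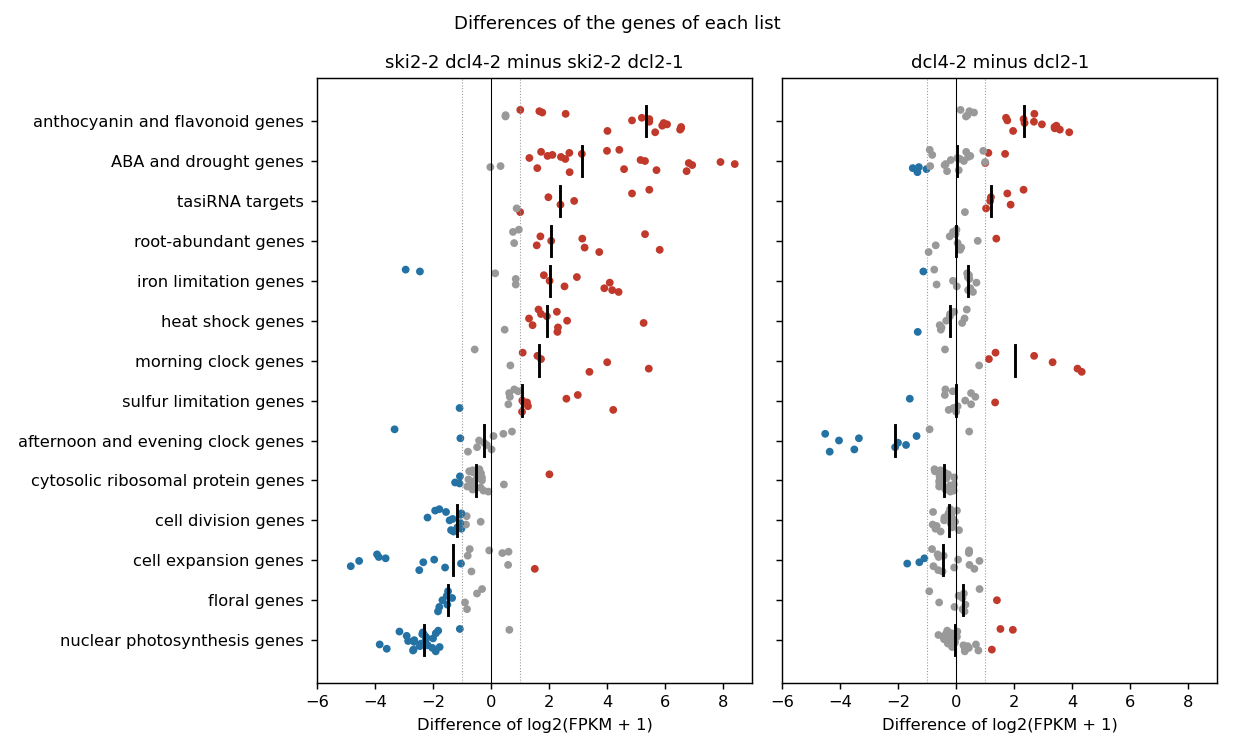
Difference of log2(FPKM + 1) of each gene in 14 lists, for ski2-2 dcl4-2 minus ski2-2 dcl2-1 (left) and dcl4-2 minus dcl2-1 (right). Each point is a gene, red at 1 or more and blue at -1 or less (dotted lines), and black bars are list medians; LHCB1.3, listed at 0 in dcl2-1, is left out. On the left the ABA genes have a median of 3.13, and on the right of 0.05.

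Genes normally abundant in roots were higher in the above-ground parts of ski2-2 dcl4-2. Of 11 such genes, 8 were higher and 0 lower, with a median difference of 2.07. IRT1, the iron transporter of the root surface, had 60.6 FPKM in ski2-2 dcl4-2, against 0.0986 FPKM in ski2-2 dcl2-1, and no more than 0.253 FPKM in the triple mutant, ski2-2, dcl4-2, dcl2-1 and Col-0. The authors' deposited table gives q = 0.275 for the triple mutant against ski2-2 dcl4-2 at this gene. For ski2-2 dcl4-2 it gives q = 0.227 against Col-0, 0.363 against dcl4-2 and under 0.05 against ski2-2. PYK10, a root beta-glucosidase and the main part of the root marker sum, had 673 FPKM in ski2-2 dcl4-2 and 49.96 FPKM in ski2-2 dcl2-1. PHT1;1, a phosphate transporter, had 41.3 FPKM in ski2-2 dcl4-2 and 0.0720 FPKM in ski2-2 dcl2-1. For PHT1;1 in ski2-2 dcl4-2, the authors' deposited table lists q = 0.0621 against ski2-2 and under 0.05 against Col-0 and dcl4-2. For the triple mutant against ski2-2 dcl4-2 it lists q = 0.365. NRT1.5, which loads nitrate into the xylem, had 68.7 FPKM in ski2-2 dcl4-2 and 6.89 FPKM in ski2-2 dcl2-1. All the root markers matched above are in this list, so the root marker sums are no separate measure. The part of root tissue in these values was not tested.

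Plants short of iron raise uptake genes and lower iron stores. Of 13 members, 8 were higher and 2 lower. The higher ones included the bHLH regulators of iron shortage BHLH038 (30.8 FPKM in ski2-2 dcl4-2 and 0.515 FPKM in ski2-2 dcl2-1) and BHLH039 (19.4 FPKM in ski2-2 dcl4-2 and 0.131 FPKM in ski2-2 dcl2-1), and the ferric reductase gene FRO2, at 28.3 FPKM in ski2-2 dcl4-2 and 0.721 FPKM in ski2-2 dcl2-1. The lower ones were FER4 and FER3, ferritins that store iron in plastids, of which FER4 had 9.57 FPKM in ski2-2 dcl4-2 and 80.2 FPKM in ski2-2 dcl2-1. IRT1 stands in the root list and is not counted here. Among 13 sulfur limitation genes, 7 were higher and 1 lower. The sulfate transporter gene SULTR1;2 led them, at 27.0 FPKM in ski2-2 dcl4-2 and 0.512 FPKM in ski2-2 dcl2-1, followed by SDI1 and LSU1, genes that mark sulfur shortage, with differences of 2.99 and 2.60. SULTR2;1, which moves sulfate in the vasculature rather than into the root, was the lower one, at 41.3 FPKM in ski2-2 dcl4-2 and 88.8 FPKM in ski2-2 dcl2-1. Among 16 nitrate and ammonium genes, 5 were higher, led by the nitrate transporter gene NRT2.1 at 48.6 FPKM in ski2-2 dcl4-2 and 1.16 FPKM in ski2-2 dcl2-1 and its partner NRT3.1 at 63.7 FPKM in ski2-2 dcl4-2 and 11.6 FPKM in ski2-2 dcl2-1. The other 3 higher genes act in assimilation, the asparagine synthetase genes ASN1 and ASN2 (differences 1.84 and 1.64) and the cytosolic glutamine synthetase gene GLN1.3 (1.29). The uptake genes NRT1.1 and AMT1.1 differed by 0.08 and -0.01. The plastid glutamine synthetase gene GLN2 was the lower one, at 468 FPKM in ski2-2 dcl4-2 and 1043 FPKM in ski2-2 dcl2-1. Of 11 phosphate limitation genes, 3 were higher and 0 lower; besides PHT1;1 these were the phosphatase genes PS2 and PAP17, which differed by 2.77 and 2.51.

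Heat shock genes were higher in 10 of 11 members and lower in 0, with a median difference of 1.92. HSP70-4, a cytosolic chaperone, had 317 FPKM in ski2-2 dcl4-2 and 7.32 FPKM in ski2-2 dcl2-1. HSP90.1 had 33.8 FPKM in ski2-2 dcl4-2 and 4.65 FPKM in ski2-2 dcl2-1, but it was as high in the triple mutant (38.5 FPKM) and in ski2-2 (44.0 FPKM). The heat factor gene HSFA2 showed the same order, with 6.64 FPKM in ski2-2 dcl4-2, 1.02 in ski2-2 dcl2-1, 6.86 in the triple mutant and 8.65 in ski2-2. HSP21 and HSP22 were listed at 0 in ski2-2 dcl2-1 and at 3.94 and 1.69 FPKM in ski2-2 dcl4-2. For HSP90.1 and HSFA2, ski2-2 dcl2-1 was thus the genotype that stood apart from the other ski2-2 genotypes. Senescence genes divided: of 13 members, 5 were higher, led by SAG29 and by SAG21 (472 FPKM in ski2-2 dcl4-2 and 51.9 FPKM in ski2-2 dcl2-1), and 4 were lower, among them SEN1 (5.07 FPKM in ski2-2 dcl4-2 and 23.2 FPKM in ski2-2 dcl2-1) and NYC1, a chlorophyll b reductase, with a difference of -1.27. SAG12, a cysteine protease of late leaf ageing, stayed under 1 FPKM in both.

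Nuclear genes of photosynthesis were among the most abundant of the lower genes. Of 28 such genes 27 were lower and 0 higher, with a median difference of -2.29. Together they held 7.08% of the FPKM sum in ski2-2 dcl4-2, against 19.2% in ski2-2 dcl2-1, 15.2% in the triple mutant, 14.7% in ski2-2 and 20.9% in Col-0. LHCB2.3, a chlorophyll-binding protein of the light-harvesting antenna, had 168 FPKM in ski2-2 dcl4-2 and 2408 FPKM in ski2-2 dcl2-1 (difference -3.84). RBCS3B, a small subunit of the carbon-fixing enzyme Rubisco whose close copies may share reads, had 905 FPKM in ski2-2 dcl4-2 and 10919.6 FPKM in ski2-2 dcl2-1. PSBQA, of the oxygen-evolving complex, had 449 FPKM in ski2-2 dcl4-2 and 4001 FPKM in ski2-2 dcl2-1, and PSAF, of photosystem I, 706 FPKM in ski2-2 dcl4-2 and 5297 FPKM in ski2-2 dcl2-1. The plastid aldolase gene FBA1 was the exception, at 990.3 FPKM in ski2-2 dcl4-2 and 639 FPKM in ski2-2 dcl2-1. Of the 27 lists this one depended most on scaling: after quantile normalization the median was -0.79, RCA, the activator of Rubisco, turned from -1.07 to 0.62, and FBA1 stood at 1.79. The leaf markers RBCS1A, LHCB1.1 and RCA are in this list, so the leaf marker sum given above is no separate measure. The part of tissue make-up was not tested. With SKI2 intact, the list's median difference was -0.05. G-boxes and ABREs were not confined to the higher genes. Of these 28 promoters, 9 held a G-box and 11 an ABRE, and that of LHCB2.3 is printed for comparison with DFR, with its G-box in capitals.
LHCB2.3, chr3:10255656-10255905, plus strand: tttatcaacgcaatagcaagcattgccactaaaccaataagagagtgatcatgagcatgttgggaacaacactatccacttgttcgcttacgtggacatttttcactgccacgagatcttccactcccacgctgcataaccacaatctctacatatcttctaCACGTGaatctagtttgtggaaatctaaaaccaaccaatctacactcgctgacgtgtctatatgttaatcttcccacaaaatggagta

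The 12 largest differences on the lower side were headed by the defensin gene PDF1.2, a marker of jasmonate and ethylene response, at 0.319 FPKM in ski2-2 dcl4-2 and 221 FPKM in ski2-2 dcl2-1 (difference -7.40). Its near copy PDF1.2c had 0.147 FPKM in ski2-2 dcl4-2 and 106 FPKM in ski2-2 dcl2-1. Neither was past 0.05 in the authors' deposited table for ski2-2 dcl4-2 against ski2-2 (q = 0.341 and 0.212). AT1G67865, whose protein is uncharacterized, had 40.1 FPKM in ski2-2 dcl4-2 and 2266 FPKM in ski2-2 dcl2-1. LHB1B1, an antenna protein, had 253 FPKM in ski2-2 dcl4-2 and 8562 FPKM in ski2-2 dcl2-1, and MEE3, a homeodomain-like gene, 0.675 FPKM in ski2-2 dcl4-2 and 66.4 FPKM in ski2-2 dcl2-1. The pectin methylesterase inhibitor family gene AT5G62360 was at 0.241 FPKM in ski2-2 dcl4-2 and 61.1 FPKM in ski2-2 dcl2-1, and it was likewise high in dcl2-1 (91.0 FPKM) and low in the triple mutant, ski2-2, dcl4-2 and Col-0, which lay between 0.289 and 1.68 FPKM. The other genes of this set were AT2G20870 (a cell wall protein), AT1G15125 (a methyltransferase), MSRB6 (a methionine sulfoxide reductase), AT5G33370 (a lipase-like protein), AT5G22580 (a stress-responsive domain protein) and the snoRNA AT3G47348, and their differences ran from -4.96 to -5.69. AT3G47348 spans 85 bases and was listed at 0 in several other genotypes, so its value is not a firm one.

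Genes that loosen and extend cell walls were mostly lower. Of 18 cell expansion genes, 10 were lower and 1 higher, with a median difference of -1.31. EXPA8, an expansin, had 5.6 FPKM in ski2-2 dcl4-2 and 187 FPKM in ski2-2 dcl2-1 (difference -4.83). The xyloglucan-modifying enzyme genes XTH6, XTH16 and XTH9 differed by -4.54, -3.93 and -3.87, and XTH9 was at 27.2 FPKM in ski2-2 dcl4-2 and 411 FPKM in ski2-2 dcl2-1. EXPA4 was the higher one, at 108 FPKM in ski2-2 dcl4-2 and 37.5 FPKM in ski2-2 dcl2-1, and 7 genes, including the aquaporins PIP1;2 and PIP2;1, were within 1. Of 17 cell division genes, 14 were lower and 0 higher. PCNA1, the sliding clamp of DNA replication, had 6.76 FPKM in ski2-2 dcl4-2 and 34.3 FPKM in ski2-2 dcl2-1, the kinase gene AUR1 1.79 FPKM in ski2-2 dcl4-2 and 9.58 FPKM in ski2-2 dcl2-1, and KNOLLE, a syntaxin of the forming cell plate, 12.5 FPKM in ski2-2 dcl4-2 and 38.5 FPKM in ski2-2 dcl2-1. No gene of the division list passed the call between dcl4-2 and dcl2-1. Of 11 floral genes 7 were lower: the organ identity genes AP1 and AP3 were at 0.0545 and 0.331 FPKM in ski2-2 dcl4-2 and 2.74 and 3.57 FPKM in ski2-2 dcl2-1, and SOC1, an integrator of flowering signals, differed by -1.48. FT, the mobile flowering signal, differed by -0.31. For ski2-2 dcl4-2 against ski2-2, the authors' deposited table gives q = 0.336 for AP1 and 0.00651 for AP3.

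**Figure D3:**
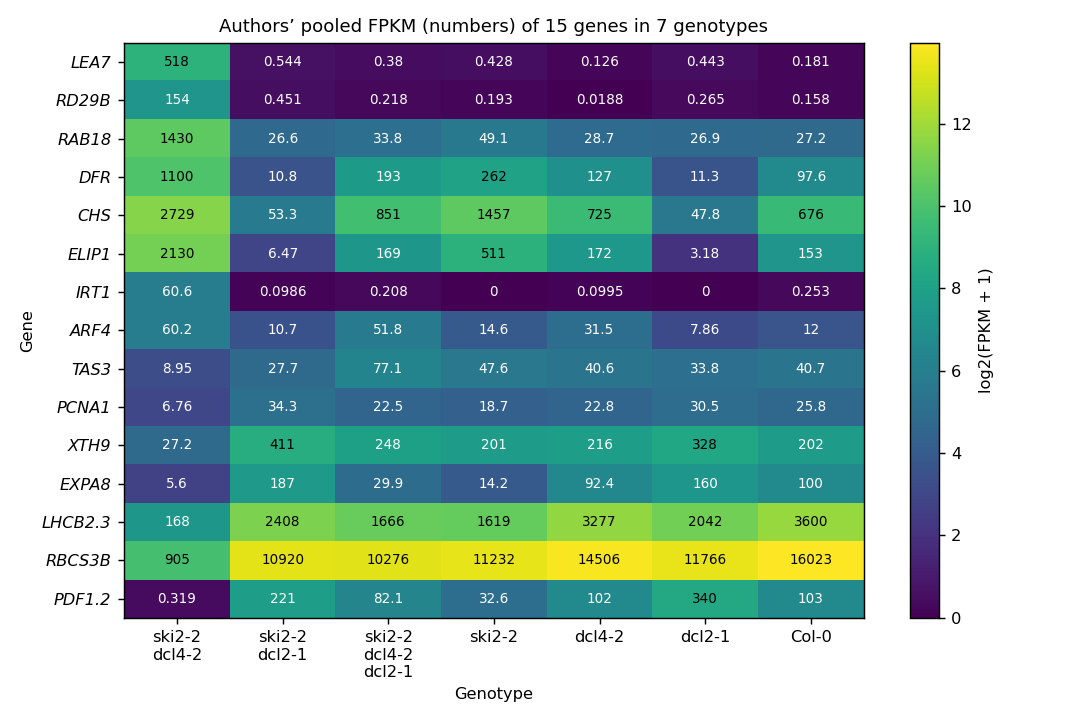
The authors' pooled FPKM (numbers) of 15 genes in 7 genotypes, coloured by log2(FPKM + 1). LEA7, RD29B and IRT1 are high in ski2-2 dcl4-2 alone among these, DFR, CHS and ELIP1 are lowest in ski2-2 dcl2-1 and dcl2-1, and ARF4 is higher in the 3 genotypes with dcl4-2.

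Hormone lists other than ABA showed no common direction. Of 20 salicylic acid and immune genes, 4 were higher and 4 lower. The immune enzyme gene FMO1 had 7.21 FPKM in ski2-2 dcl4-2 and 0.601 FPKM in ski2-2 dcl2-1, and PR2, a glucanase, 236 FPKM in ski2-2 dcl4-2 and 90.9 FPKM in ski2-2 dcl2-1, whereas the transcription factor genes WRKY54 and WRKY70 differed by -3.15 and -2.09. PR1, the usual salicylic acid marker, was at 156 FPKM in ski2-2 dcl4-2 and 172 FPKM in ski2-2 dcl2-1. Of 19 jasmonate genes 2 were higher and 4 lower: the repressor gene JAZ1 had 30.3 FPKM in ski2-2 dcl4-2 and 11.6 FPKM in ski2-2 dcl2-1, and VSP1, a storage protein, 24.1 FPKM in ski2-2 dcl4-2 and 178 FPKM in ski2-2 dcl2-1. Of 17 ethylene genes, 3 were higher, among them HCHIB (a chitinase) at 2.18, and 4 lower. Of 18 glucosinolate genes, 2 were higher, CYP79F2 and the regulator gene MYB34, by 1.86 and 1.45, and 0 were lower. Of 23 cytosolic ribosomal protein genes, 3 were lower and 1 higher; their median of -0.54 became 0.03 after quantile normalization, so no direction is given for them.

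Most miRNAs are cut by DCL1, and their listed targets stood on both sides. Of 38 members, 10 were higher and 9 lower. The targets of miR169 were on the higher side, NFYA5 with 27.3 FPKM in ski2-2 dcl4-2 and 1.51 FPKM in ski2-2 dcl2-1 and NFYA10 with 21.8 FPKM in ski2-2 dcl4-2 and 1.72 FPKM in ski2-2 dcl2-1. PHO2, the target of miR399 that limits phosphate uptake, had 92.4 FPKM in ski2-2 dcl4-2 and 25.9 FPKM in ski2-2 dcl2-1. Of 7 listed SPL genes, targets of miR156, SPL3, SPL5 and SPL9 were lower and the other 4 were within 1. SPL3, which promotes flowering, had 0.214 FPKM in ski2-2 dcl4-2 and 5.98 FPKM in ski2-2 dcl2-1, and SPL9 had 2.99 FPKM in ski2-2 dcl4-2 and 14.5 FPKM in ski2-2 dcl2-1. For ski2-2 dcl4-2 against ski2-2, the authors' deposited table gives q = 0.106 for SPL3, 0.232 for SPL5 and under 0.05 for SPL9. CSD2, the plastid superoxide dismutase targeted by miR398, had 287 FPKM in ski2-2 dcl4-2 and 1230.4 FPKM in ski2-2 dcl2-1. The small RNAs themselves were not analysed here.

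The circadian clock alternates morning genes, such as CCA1 and LHY, with evening genes that repress them, and all plants were harvested at the same hour. Of 8 morning genes 6 were higher in ski2-2 dcl4-2 and 0 lower. LHY had 115 FPKM in ski2-2 dcl4-2 and 1.69 FPKM in ski2-2 dcl2-1, RVE8 73.7 FPKM in ski2-2 dcl4-2 and 3.67 FPKM in ski2-2 dcl2-1, and CCA1 80.0 FPKM in ski2-2 dcl4-2 and 6.74 FPKM in ski2-2 dcl2-1. LNK1, LNK2 and PRR9 were higher by 1.72, 1.6 and 1.09, and RVE4 and PRR7 differed by 0.66 and -0.56. With SKI2 intact, LHY was at 47.3 FPKM in dcl4-2 and 1.66 FPKM in dcl2-1. Low LHY did not go with dcl2-1 in every genotype. The triple mutant, which also carries dcl2-1, had 188 FPKM, near the 204 FPKM of ski2-2, while ein5-1 with both Dicer alleles had 3.57 FPKM. The afternoon and evening genes did not mirror this. Of 11, 2 were lower and 0 higher, with a median difference of -0.24, against -2.10 between dcl4-2 and dcl2-1, where 9 were lower. PRR5, a repressor of the morning genes, had 12.7 FPKM in ski2-2 dcl4-2 and 22.7 FPKM in ski2-2 dcl2-1, but 0.133 in the triple mutant, 0.308 in ski2-2, 0.568 in dcl4-2, 31.1 in dcl2-1 and 0.391 in Col-0. In ski2-2 dcl4-2, CCA1 and LHY were thus near or above their Col-0 levels of 102 and 61.1 FPKM while PRR5 was far above its own. PRR3, FKF1, ELF4, ELF3 and GI were likewise higher in both genotypes of the pair than in Col-0. Between ski2-2 dcl4-2 and ski2-2 dcl2-1 they differed by 0.02, 0.42, -0.41, -0.24 and -0.15. The median level of the 11 genes was 15.4 FPKM in ski2-2 dcl4-2, 22.2 FPKM in ski2-2 dcl2-1 and 3.48 FPKM in Col-0. TOC1, BOA and ZTL differed by -0.48, 0.09 and 0.72 within the pair. The lower ones were LUX, of the evening complex, at 15.4 FPKM in ski2-2 dcl4-2 and 33.1 FPKM in ski2-2 dcl2-1, and CHE, a repressor of CCA1, at 18.4 FPKM in ski2-2 dcl4-2 and 193 FPKM in ski2-2 dcl2-1. The part of clock state in the other differences was not tested. The promoter of LUX is printed as that of an evening gene, with the short evening element in capitals.
LUX, chr3:17182792-17183041, plus strand: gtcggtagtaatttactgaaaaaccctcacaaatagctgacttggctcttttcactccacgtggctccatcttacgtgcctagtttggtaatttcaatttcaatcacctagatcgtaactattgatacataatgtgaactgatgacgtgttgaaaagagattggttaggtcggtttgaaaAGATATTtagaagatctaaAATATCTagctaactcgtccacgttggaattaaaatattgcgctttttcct
Of the 11 afternoon and evening genes 7 held this element and 2 a G-box, while of the 8 morning genes 4 held this element and 7 a G-box. Over all members the shares were 11.8% for this element and 8.94% for the G-box. LUX also held a G-box and an ABRE, which are not marked.

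**Figure D4:**
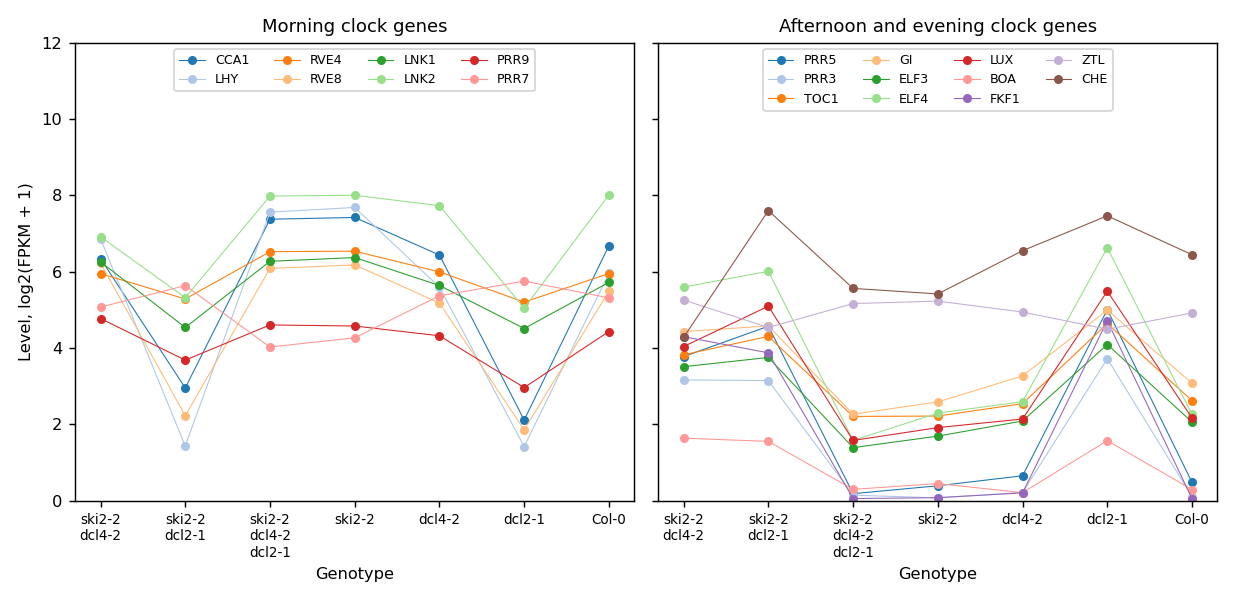
Levels of the 8 morning (left) and 11 afternoon and evening clock genes (right), as log2(FPKM + 1) of the authors' pooled value, in 7 genotypes; lines join the values of a gene. LHY, CCA1 and RVE8 are low in ski2-2 dcl2-1 and dcl2-1, while PRR5, PRR3 and FKF1 are high there and in ski2-2 dcl4-2.

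The same Dicer contrast with SKI2 intact, dcl4-2 against dcl2-1, shares no library with the ski2-2 pair. Over the same 19771 genes, 781 (3.95%) were higher in dcl4-2 and 859 (4.34%) lower. Of the 2861 genes higher in ski2-2 dcl4-2, 413 (14.4%) were also higher in dcl4-2, which is 52.9% of the genes higher there. Of the 2787 lower genes, 362 (13%) were also lower in dcl4-2, which is 42.1% of the genes lower there. Across genes, the differences of the 2 pairs had a Pearson's r of 0.273. The difference between the 2 contrasts was at least 1 for 2813 genes (14.2%) and at most -1 for 2525 (12.8%). It was largest for LEA7 (8.75), AT2G05510 (8.08), LEA4-5 (7.33), AT2G33830 (7.06) and RD29B (7.05). AT2G33830, a dormancy and auxin-associated gene, was mainly set apart by the intact pair, at 6.04 FPKM in dcl4-2 and 549 FPKM in dcl2-1, and was at 410.5 FPKM in ski2-2 dcl4-2 and 239 FPKM in ski2-2 dcl2-1. On the other side stood MEE3 (-6.32), the pollen allergen family gene AT3G16670 (-5.76), PDF1.2 (-5.67), AT2G20870 (-5.65) and XTH6 (-5.35).

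The Dicer contrast in plants with ein5-1 in place of ski2-2 also shares no library with the ski2-2 pair. Between ein5-1 dcl4-2 and ein5-1 dcl2-1, 16.6% of the members were higher and 14.2% lower. Of the genes higher in ski2-2 dcl4-2, 1759 (61.5%) were also higher in ein5-1 dcl4-2, 53.5% of the genes higher there, and 24 were lower. Of the genes lower in ski2-2 dcl4-2, 1869 (67.1%) were also lower in ein5-1 dcl4-2, 66.8% of the genes lower there, and 53 were higher. Pearson's r between the 2 sets of differences was 0.733 across genes. The ABA list had a median of 3.13 in the ski2-2 pair and 3.26 in the ein5-1 pair, and the anthocyanin list 5.32 and 5.14 in the same order. Other lists had unlike values in the pairs: 4 of 20 salicylic acid and immune genes were higher in the ski2-2 pair and 14 in the ein5-1 pair, and the heat shock median was 1.92 in the ski2-2 pair and 5.22 in the ein5-1 pair. Of 19 jasmonate genes 2 were higher in the ski2-2 pair and 13 in the ein5-1 pair, and of 13 senescence genes 5 in the ski2-2 pair and 12 in the ein5-1 pair. IRT1 was higher in the ski2-2 genotype, at 60.6 FPKM in ski2-2 dcl4-2 and 1.09 FPKM in ein5-1 dcl4-2. LEA7 was at 307 FPKM in ein5-1 dcl4-2 and 0.698 FPKM in ein5-1 dcl2-1, next to its 518 FPKM in ski2-2 dcl4-2. None of these differences between the pairs was tested.

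**Figure D5:**
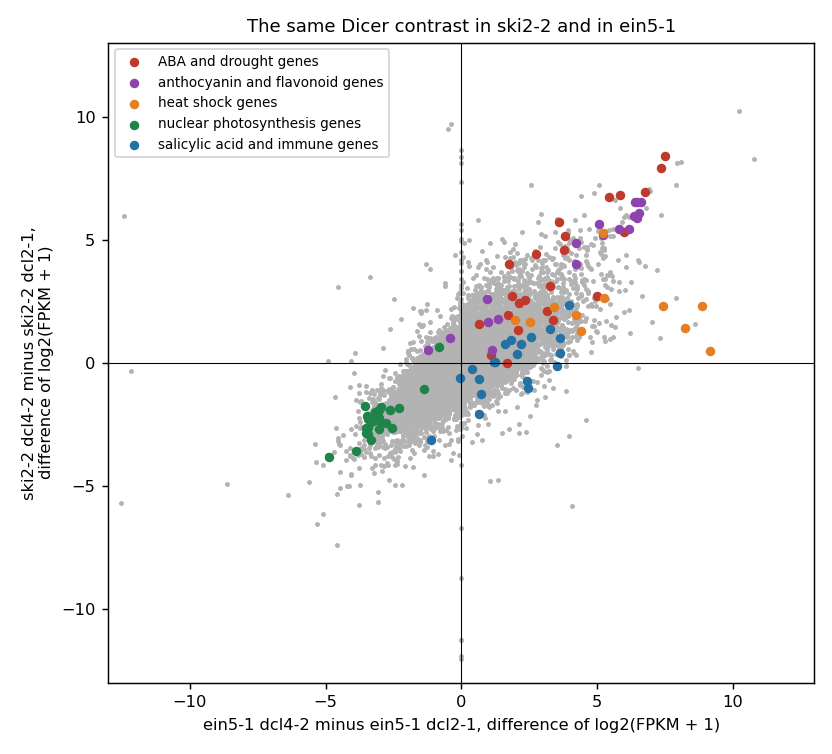
Difference of log2(FPKM + 1), dcl4-2 genotype minus dcl2-1 genotype, in ski2-2 (vertical axis) against that in ein5-1 (horizontal axis) for the 19771 members, with 5 lists coloured. ABA and anthocyanin genes lie mostly in the upper right and photosynthesis genes in the lower left, while several heat shock genes lie far to the right and less than 3 above 0 on the vertical axis.

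Levels of the called genes in other genotypes are given as a description, since the call chose them by their values in the pair and medians of other genotypes tend to fall between. The genes higher in ski2-2 dcl4-2 had a median of 10.7 FPKM there and 1.72 FPKM in ski2-2 dcl2-1, and of 2.62 FPKM in the triple mutant, 2.78 in ski2-2 and 2.27 in Col-0. The triple mutant lacks DCL4 as well, and its median was near those of ski2-2 and Col-0. The genes lower in ski2-2 dcl4-2 had a median of 9 FPKM there and 31.9 FPKM in ski2-2 dcl2-1, and of 21.3 FPKM in the triple mutant, 20.4 in ski2-2 and 24.2 in Col-0.

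Genes listed at 0 need care, since a 0 in such a table can be a failed estimate. Of the members, 108 were listed at 0 in ski2-2 dcl4-2 and 472 in ski2-2 dcl2-1. The highest of those listed at 0 in ski2-2 dcl4-2 were the snoRNAs AT3G24612 and AT3G01313 and the gene AT1G65541, with 4141, 3871 and 2470.2 FPKM in ski2-2 dcl2-1, and they span 87, 83 and 340 bases. Their counterparts at 0 in ski2-2 dcl2-1 were the snoRNAs AT4G39366, AT1G74453 and AT1G03502, with 1205, 819.6 and 711 FPKM in ski2-2 dcl4-2 and 120, 110 and 114 bases. LHCB1.3, an abundant antenna gene at 11534 FPKM in ski2-2 dcl4-2 and 40528 FPKM in ski2-2 dcl2-1, was listed at 0 in dcl2-1, so a 0 here can stand for a transcript that is present.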

How the data were processed

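Poly(A) RNA values of above-ground parts of 11 genotypes, 33 libraries in all, were used as deposited. Per the submitters' processing notes, TopHat2 2.1.1, Cuffdiff and TAIR10 were used; the Cuffdiff version is not given in the sources used here. The authors deposited 1 pooled FPKM value per gene and genotype, per the file headers, with their log2 ratios, p-values and q-values for 8 other comparisons, of which only the q-values named in the text were used. Such p-values reflect the spread between numbered replicates, which may not be separate growths. Library counts are not in the table, so depth, SD and intervals are unknown. The pair was compared by the difference of log2(FPKM + 1), which understates differences of low genes, and no value was tested.

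A gene was called at a difference of 1 or more. Named were the mutated genes and all clock genes; the 12 largest differences each way among genes with at least 5 FPKM in either genotype and above 0 in both; about 4 examples per list, the largest first and others chosen for their role; the 3 highest genes listed at 0 in each genotype; and the 5 largest differences of contrasts each way. Members, lists and examples were chosen with earlier results of these data known. Of 33557 gene IDs, 32810 had a row in the name table, and 430 of 441 listed symbols were matched. List members under 1 FPKM in both genotypes were not counted.

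Sequences and annotations are from RefSeq TAIR10.1; the table gives no coordinates. Alternatives were a pseudocount of 0.1, a minimum of 5 FPKM or none, quantile normalization, median-of-ratios scaling and leaving out genes called between dcl4-2 and dcl2-1. Scripts used Python 3.11.15 with numpy 2.4.6, pandas 2.3.3 and matplotlib 3.10.9 and were tested on simulated data.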

Additional observations from a re-analysis of the deposited data

Results flagged for a closer look

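Among named genes listed above 0 in all 4 genotypes of the 2 pairs, 12 had a Dicer contrast past 1 in opposite directions with ski2-2 and with SKI2 intact. By the same filter, 73 members were higher in the ski2-2 pair and lower in the intact pair, and 49 the reverse. With genes listed at 0 included, these counts were 94 and 67, which is 3.29% of the higher and 2.4% of the lower genes. Over all members, 4.34% were lower and 3.95% higher in dcl4-2 than in dcl2-1. Opposite calls were thus no more frequent than these general shares. The named genes LHCB1.3, AT1G74453 and AT4G39366 came in with the genes listed at 0, and no difference is given for them. Each genotype gives 1 pooled value, so the differences between the contrasts were not tested. KIN1, a cold-induced protective protein, had 236 FPKM in ski2-2 dcl4-2 and 8.92 FPKM in ski2-2 dcl2-1, and 3.64 FPKM in dcl4-2 and 8.41 FPKM in dcl2-1, a difference between contrasts of 5.6. RD29A and COR15A, of the same response, gave 4.04 and 3.09. LSU1, a marker of sulfur shortage, had 60.0 FPKM in ski2-2 dcl4-2 and 9.10 FPKM in ski2-2 dcl2-1, and 1.93 FPKM in dcl4-2 and 7.86 FPKM in dcl2-1, which gives 4.19. The heat shock gene HSP17.4, the nitrate transport partner NRT3.1 and the glucanase gene PR2 gave 3.61, 3.47 and 2.73.

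In 5 genes the ski2-2 pair was the lower one. RBCS2B, a Rubisco small subunit, had 442 FPKM in ski2-2 dcl4-2 and 2812 FPKM in ski2-2 dcl2-1, and 7179 FPKM in dcl4-2 and 3060.1 FPKM in dcl2-1, a difference between contrasts of -3.90. RCA gave -2.60, and its direction in the ski2-2 pair depends on scaling. SEP1, a floral identity gene, gave -3.08, the deadenylase gene CAF1A -2.79 and ACS6, of ethylene synthesis, -2.65.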

How the results depend on the processing

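The counts of 2861 higher and 2787 lower genes became 3530 and 3286 with a pseudocount of 0.1. With a minimum of 5 FPKM they were 1962 and 2410. They were 2663 and 2936 after quantile normalization, and 2883 and 2743 after median-of-ratios scaling. Without genes called between dcl4-2 and dcl2-1 they were 2354 and 2358. All of these stayed within 1.5 times of the reported counts. A higher minimum or leaving out genes can only lower the counts. Without a minimum the counts were unchanged, which was fixed in advance. Values under 1 FPKM in both genotypes cannot differ by 1 in log2(FPKM + 1). Genes on the higher side made up 50.7% of the called genes, and 44.9% to 51.8% under these alternatives. Of 27 list medians, 26 kept their side of the call after quantile normalization; that of the photosynthesis genes was -0.79, against -2.29 as reported, and the cause was not tested. RCA reversed under quantile normalization, at 0.62 against -1.07. Of 433 named genes, 17 crossed the call with a pseudocount of 0.1 and 50 after quantile normalization, among them MYB111, GLN2 and SULTR2;1, and none after median-of-ratios scaling. No paired analysis was possible because the table holds 1 pooled value per genotype, and for that reason leaving out single libraries was not run either. A low gene's difference is limited by the unknown read depth.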
